A study of Homo sapiens with 6 samples.

Results

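Glycolysis and hypoxia response genes were followed in SW1353 cells, a line grown from a human chondrosarcoma that often stands in for chondrocytes. The set holds 43 genes chosen by symbol, with no cut on their measured values, though earlier results of these arrays were known. They are glucose transporters, glycolytic enzymes, the enzymes that make and break fructose 2,6-bisphosphate, and lactate transporters. The others are the hypoxia-inducible factor (HIF) subunits, their hydroxylases and VHL, and HIF targets. Of these genes, 40 had a named probe on the Illumina bead array, 72 probes in all, and 38 were measured among the 9078 genes tested. PFKFB2 and ARNT did not pass the detection filter, and SLC16A1, SLC16A3 and CA9 were not analysed here.

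Cells of every group were serum starved for about 20 h. The 3 IL-1 samples then had interleukin-1 alpha at 0.5 ng/ml for 6 h, and the 3 control samples did not. The oxygen level of the cultures is not given in the sources used here, and there was no low-oxygen group. All samples come from 1 cell line, and the labels do not say whether they were separate cultures. The p-values therefore rest on the spread among these 6 samples, which may be technical. Sample titles are of 2 kinds, here called title series: Allstars (control replicates 1 and 2, IL-1 replicates 1 and 2) and Sample (control replicate 3, IL-1 replicate 3). A probe was taken as well above background at a detection p under 0.01, which held for 11954 to 13357 probes an array, and median signals were between 60.3 and 67.2 on the Allstars arrays and between 91.5 and 95.3 on the Sample arrays. Of 12 chondrocyte markers SOX9, COL11A1 and HAPLN1 passed the filter, while COL2A1 and ACAN, which define cartilage matrix, did not. Of 8 leukocyte markers CD68 alone passed, and PTPRC, the common leukocyte antigen, did not. Of 4 endothelial markers VWF passed, and of 4 mesenchymal markers COL1A1, COL1A2 and VIM did. After IL-1, SOX9, the master regulator of chondrocytes, fell by 0.94 (limma adjusted p = 0.0186), and the other 7 markers that passed the filter did not pass the test without title series as a block, with which CD68 rose by 0.28 and VWF and COL1A2 fell by 0.62 and 0.44. Their part in the results was not tested.

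Glycolysis turns glucose into pyruvate, which lactate dehydrogenase can turn into lactate. Hexokinase and phosphofructokinase are its main control points, and fructose 2,6-bisphosphate, made by the PFKFB enzymes, activates phosphofructokinase. HIF is a transcription factor made of an oxygen-labile alpha subunit (HIF1A or EPAS1) and the stable partner ARNT. In oxygen the EGLN enzymes hydroxylate the alpha subunit, VHL marks it for destruction, and HIF1AN blocks its activation domain. When oxygen is short, HIF binds DNA at sites with the letters ACGTG or GCGTG and raises genes of glucose uptake, glycolysis and blood supply. Articular cartilage has no vessels, and its chondrocytes live largely from glycolysis.

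After IL-1, 6 of the 38 measured genes rose and 0 fell: ADM, PFKFB4, SLC2A6, HK2, HIF1A and EGLN1 (limma, Benjamini-Hochberg adjusted p under 0.05 over all genes tested). That is 15.8% of the measured genes, where 6.08% of all 9078 genes rose and 2.94% fell. Their rises lay between 0.78 and 1.36 on the log2 scale, or 1.71-fold to 2.57-fold. The other 32 differed by -0.37 to 0.64. The median difference of the 38 genes was 0.19, and that of all genes tested was -0.11. The genes were chosen with earlier results of these arrays known, so these shares describe the set and were not tested.

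With title series as a block, which removes the offset between the kinds of array, 17 of the 38 rose (44.7%) and 3 fell (7.89%), and the 6 rises were among the 17. In that fit 13.0% of all genes rose and 22.2% fell. Equal array medians in place of quantile normalization, with the block and tried after the data were seen, gave 20 rises and 2 falls, where 14.5% of all genes rose and 18.3% fell. In the Allstars arrays alone, with no block, 17 of the set rose and 2 fell, where 11.5% of all genes rose and 16.9% fell. Leaving out control replicate 1, control replicate 2, IL-1 replicate 1 or IL-1 replicate 2 from the fit with no block brought the 6 rises to 2, 2, 3 and 2, and leaving out either Sample array ended the rise of EGLN1. ADM and HK2 rose in each of the 18 alternative fits. In bulk RNA, a change in the number of cells that express a gene and a change in RNA per cell cannot be told apart.

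**Figure D1:**
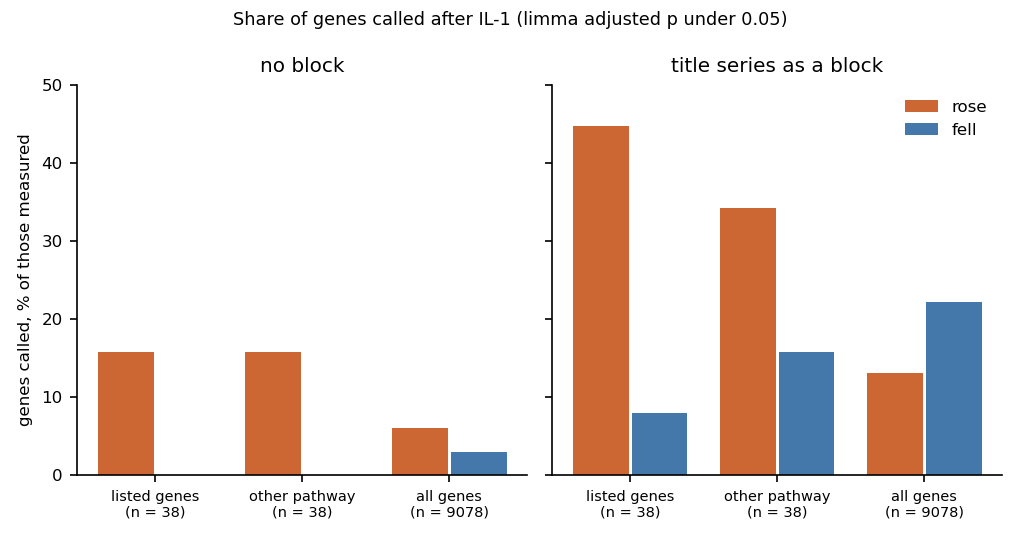
Bars give the percentage of genes that rose (orange) or fell (blue) after IL-1 by limma without a block (left) and with title series as a block (right), for the 38 measured genes of the set, 38 other genes of the pathways and all 9078 genes tested. Without a block 15.8% of the set rose and 0% fell, and with the block 44.7% rose and 7.89% fell.

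**Figure D2:**
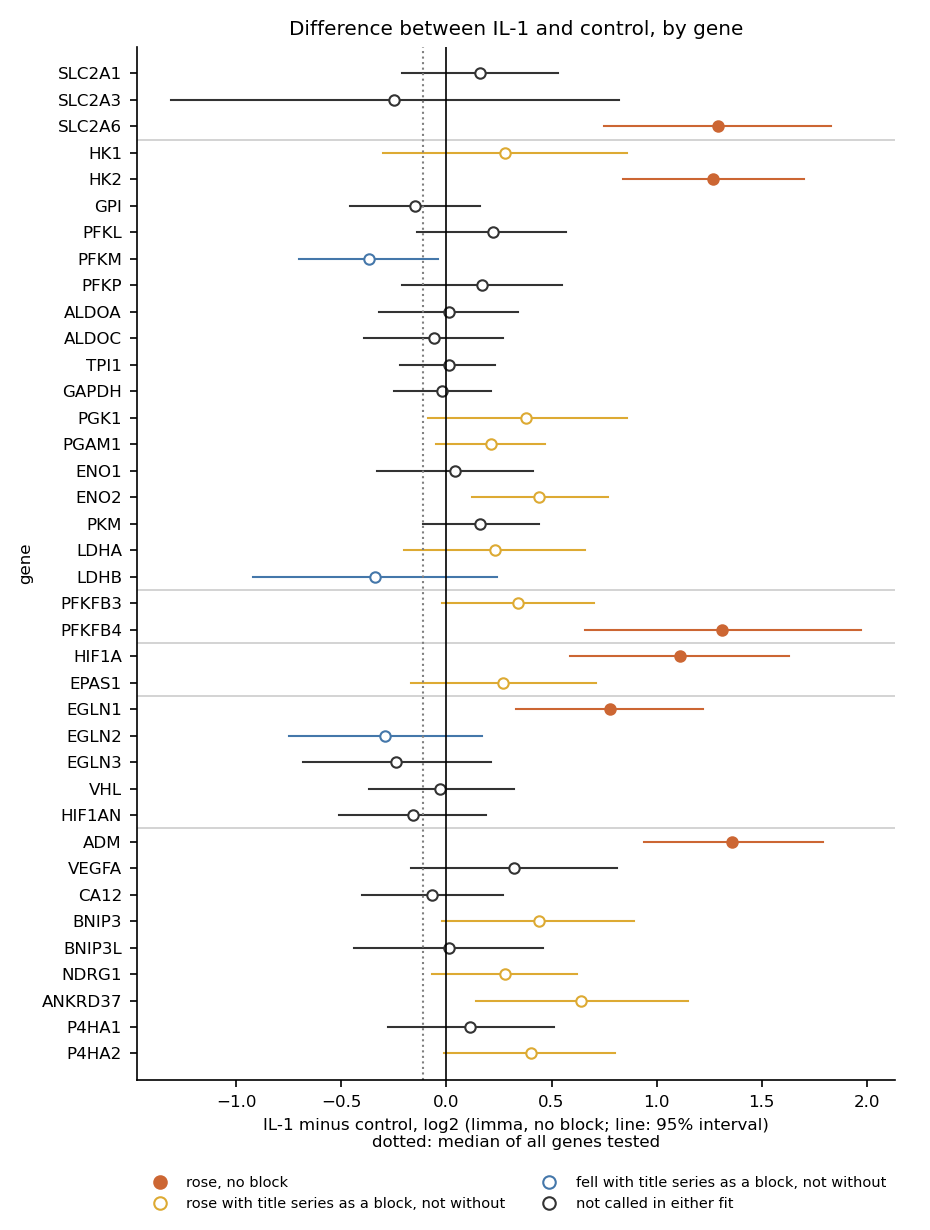
Points give the difference between IL-1 and control (log2, n = 3 each) for each of the 38 measured genes, and lines its 95% interval from limma without a block. Open yellow and blue points rose or fell with title series as a block and not without it, and filled orange points are the 6 genes that rose without it, between 0.78 (EGLN1) and 1.36 (ADM), and the dotted line marks the median of all genes tested, -0.11.

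Promoter sequences are shown for the 6 genes that rose, chosen by that call alone, and HIF binding letters were searched in them. Each line is the RefSeq window of GRCh38.p14 from 250 bases before to 50 bases after the annotated gene start, written 5′ to 3′ on the gene's strand, with ACGTG or GCGTG on either strand in capitals. The windows are SLC2A6 at chr9:133479050-133479349 (minus strand), HK2 at chr2:74833877-74834176 (plus strand), PFKFB4 at chr3:48556754-48557053 (minus strand), HIF1A at chr14:61695263-61695562 (plus strand), EGLN1 at chr1:231422238-231422537 (minus strand) and ADM at chr11:10304823-10305122 (plus strand).
SLC2A6: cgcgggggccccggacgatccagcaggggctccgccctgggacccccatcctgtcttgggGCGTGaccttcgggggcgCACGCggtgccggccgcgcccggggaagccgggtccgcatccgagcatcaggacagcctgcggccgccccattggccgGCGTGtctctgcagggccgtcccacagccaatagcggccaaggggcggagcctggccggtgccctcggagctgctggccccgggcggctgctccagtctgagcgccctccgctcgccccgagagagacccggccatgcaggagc
HK2: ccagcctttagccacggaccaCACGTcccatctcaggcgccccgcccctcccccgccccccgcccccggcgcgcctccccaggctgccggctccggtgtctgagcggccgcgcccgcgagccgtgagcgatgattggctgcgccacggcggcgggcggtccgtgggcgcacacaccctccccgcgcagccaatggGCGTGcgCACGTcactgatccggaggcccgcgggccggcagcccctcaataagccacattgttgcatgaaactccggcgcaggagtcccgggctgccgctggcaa
PFKFB4: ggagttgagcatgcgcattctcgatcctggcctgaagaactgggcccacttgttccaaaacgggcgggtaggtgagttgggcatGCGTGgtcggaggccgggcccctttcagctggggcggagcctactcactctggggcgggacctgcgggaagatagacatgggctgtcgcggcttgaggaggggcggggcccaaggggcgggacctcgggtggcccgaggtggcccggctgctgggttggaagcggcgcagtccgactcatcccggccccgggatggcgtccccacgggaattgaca
HIF1A: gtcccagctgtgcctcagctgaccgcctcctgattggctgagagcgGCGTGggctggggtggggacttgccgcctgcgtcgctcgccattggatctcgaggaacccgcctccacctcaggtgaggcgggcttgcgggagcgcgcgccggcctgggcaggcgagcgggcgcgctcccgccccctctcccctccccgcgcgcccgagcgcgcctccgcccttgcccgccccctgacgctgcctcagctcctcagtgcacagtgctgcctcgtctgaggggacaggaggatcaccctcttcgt
EGLN1: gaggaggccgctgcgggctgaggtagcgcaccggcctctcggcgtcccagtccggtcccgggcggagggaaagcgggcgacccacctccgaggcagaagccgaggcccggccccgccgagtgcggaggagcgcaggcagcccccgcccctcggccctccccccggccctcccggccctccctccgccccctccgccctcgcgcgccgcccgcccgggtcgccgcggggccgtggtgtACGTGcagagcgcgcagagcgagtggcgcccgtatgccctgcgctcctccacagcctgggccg
ADM: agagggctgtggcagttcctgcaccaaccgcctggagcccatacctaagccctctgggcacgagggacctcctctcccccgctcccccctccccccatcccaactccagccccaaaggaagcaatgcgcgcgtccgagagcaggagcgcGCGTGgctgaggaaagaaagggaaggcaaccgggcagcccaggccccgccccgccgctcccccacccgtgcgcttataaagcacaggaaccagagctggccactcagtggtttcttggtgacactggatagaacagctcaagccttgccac

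All 6 windows held ACGTG or GCGTG at least once, and SLC2A6 and HK2 held 3 matches each. The letters are common: they were present in 19 of the 27 windows of measured genes that did not pass the test (70.4%), in 63.8% of the 7552 windows of genes tested and in 48.4% of all 27305 windows. ACGTG alone was in 2 of the 6 windows (33.3%), in 11 of the 27 others (40.7%) and in 27.8% of the windows of genes tested. The longer letters CACGTG, an E-box that contains ACGTG on both strands, were in 0 of the 6 windows, in 6 of the 27 others (22.2%) and in 10.5% of the windows of genes tested. NF-kB, the main transcription factor of IL-1 signalling, was searched in a single spelling, GGGRNNYYCC on either strand (R is A or G, Y is C or T, N any letter). These letters were in 0 of the 6 windows, in 3 of the 27 others (11.1%) and in 12.7% of those of genes tested. Other spellings of the site were not searched, so the 0 does not show that NF-kB sites are absent. Windows of the 6 genes had a median GC content of 73.7%, against 69.7% for the 27 others and 65.0% for the genes tested. The letters searched are rich in G and C. A match is a description of the letters, and a window without one says only that the letters are not in these 300 bases. SLC2A3, VHL, VEGFA, BNIP3L and NDRG1 had no window in the table.

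Among the HIF subunits, HIF1A rose, while EPAS1 did not pass over all arrays without the block and rose with it. HIF1A, the oxygen-labile subunit of HIF-1, had log2 signals of 10.08, 10.17 and 9.71 in controls and 11.47, 11.15 and 10.67 after IL-1 (replicates 1, 2 and 3, here and for each gene). Every IL-1 array lay above every control array, and in each group the Sample array was the lowest. The difference was 1.11 ± 0.22 (SE, n = 3 each), which is 2.16-fold (limma adjusted p = 0.0210, and 5.57e-07 with title series as a block). All 3 kept HIF1A probes rose: the other 2 differed by 0.95 and 1.09 (limma adjusted p = 0.0197 and 0.0470 over all kept probes). Tested probe by probe, 5.71% of the 13017 kept probes rose and 2.38% fell. With any 1 of the 4 Allstars arrays left out, the adjusted p was between 0.0535 and 0.0904.

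EPAS1, which encodes the related alpha subunit HIF-2 alpha, had 11.74, 11.68 and 11.25 in controls and 12.07, 11.88 and 11.53 after IL-1. The groups overlapped, but within each title series the IL-1 arrays were higher, by 0.27 in Allstars and by 0.28 in Sample. Its difference of 0.27 had a 95% interval of -0.17 to 0.71 (limma adjusted p = 0.478) without the block and of 0.11 to 0.43 with it (limma adjusted p = 0.0130), and EPAS1 also rose in the Allstars arrays alone (limma adjusted p = 0.0435). Whether HIF1A and EPAS1 responded unequally was not tested. The ARNT probe was well above background on 0 arrays, with log2 signals between 4.62 and 4.90.

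Of the 5 genes that restrain HIF, EGLN1 rose and the other 4 did not pass without the block. EGLN1, the prolyl hydroxylase PHD2 that is the main oxygen sensor of the pathway, had 6.95, 6.43 and 6.82 in controls and 7.55, 7.43 and 7.54 after IL-1. The groups did not overlap, as in 11.0% of all genes tested, in which every IL-1 array lay above every control array. The rise of 0.78 ± 0.19 (1.71-fold) passed narrowly (limma adjusted p = 0.0467, and 0.00241 with the block). Leaving out any 1 of the 6 arrays ended the call, with adjusted p between 0.0654 and 0.172. It was also lost in the authors' log2 values, where it was 0.44 (limma adjusted p = 0.264), with no detection filter (0.165), with a filter of at least 1 array (0.0504) and with every kept probe tested (0.0529).

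EGLN2, the prolyl hydroxylase PHD1, had 11.53, 11.42 and 10.94 in controls and 11.10, 11.21 and 10.72 after IL-1. The groups overlapped through the low Sample control, and the IL-1 arrays were lower within each title series. The difference of -0.29 (95% interval -0.75 to 0.17) did not pass without the block (limma adjusted p = 0.471), and passed with it (0.00953) and in the Allstars arrays alone (0.0175). With the block and equal array medians it was -0.16 and did not pass (limma adjusted p = 0.133), and a second kept probe differed by -0.07. EGLN3, the prolyl hydroxylase PHD3 and itself a HIF target, had 7.83, 7.62 and 8.06 in controls and 7.53, 7.41 and 7.86 after IL-1. The groups overlapped, with a difference of -0.24 (95% interval -0.68 to 0.21, limma adjusted p = 0.549).

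VHL, the substrate receptor of the ubiquitin ligase that destroys hydroxylated HIF alpha, had 9.78, 9.91 and 9.52 in controls and 9.65, 9.81 and 9.67 after IL-1. The arrays of the groups were interleaved, and the difference was -0.03 (95% interval -0.37 to 0.32). Its sign was not stable, since array medians made equal gave 0.04 and the other 2 kept VHL probes gave 0.33 and 0.20, none past the test. HIF1AN, the asparagine hydroxylase FIH, had 7.92, 7.72 and 7.73 in controls and 7.74, 7.59 and 7.58 after IL-1, with a difference of -0.16 (95% interval -0.51 to 0.19) that did not pass with or without the block.

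**Figure D3:**
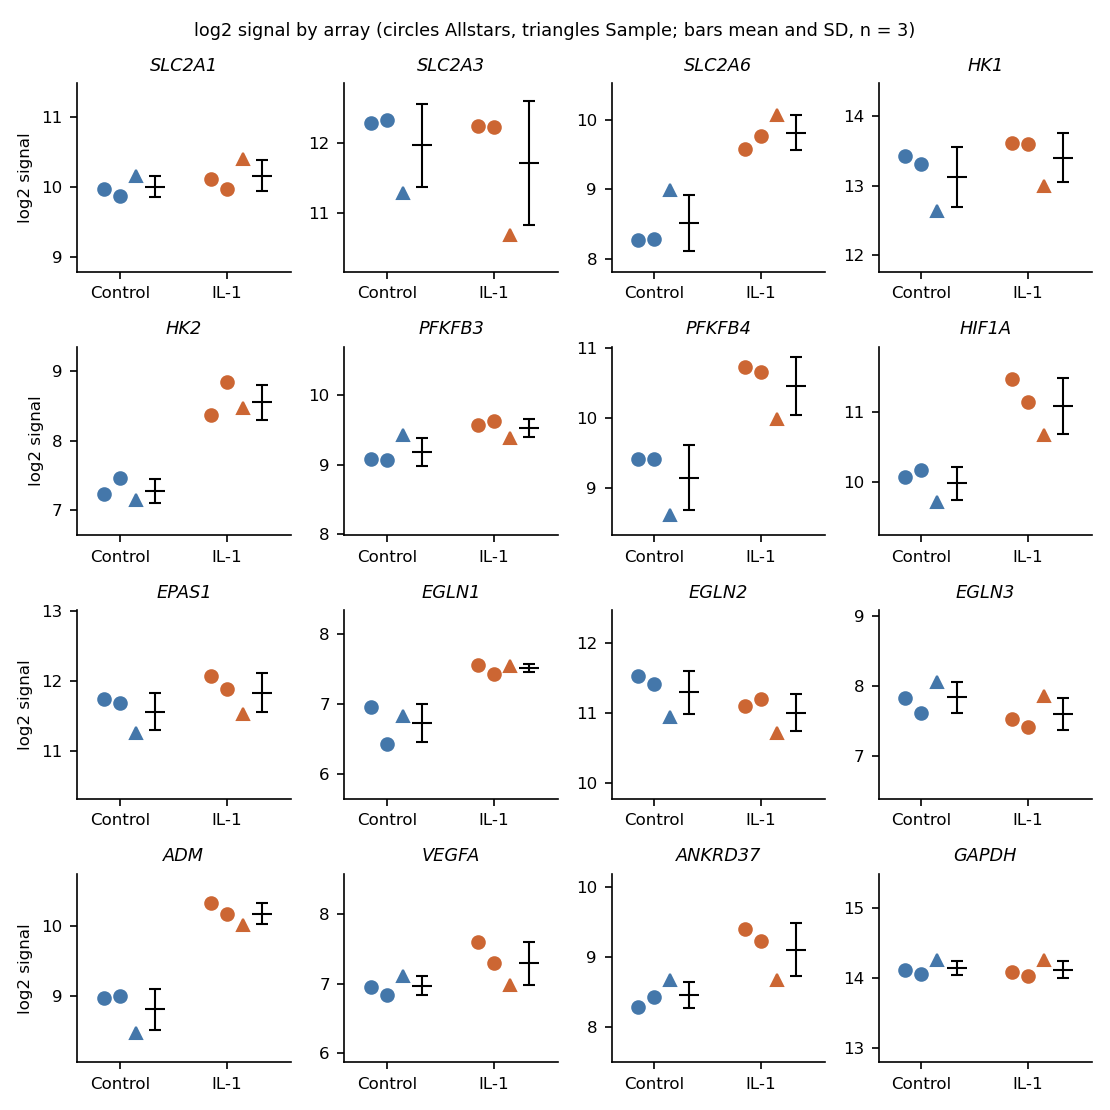
Each panel gives 1 gene's log2 signal on the 3 control (blue) and 3 IL-1 (orange) arrays, with circles for Allstars, triangles for Sample, and bars for the mean and SD. All panels span the same range of log2 units, and the IL-1 arrays lie clear of the controls for SLC2A6, HK2, PFKFB4, HIF1A, EGLN1 and ADM, while those of SLC2A1, HK1, EPAS1 and GAPDH overlap them.

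Of the 9 measured genes listed under HIF targets, 1 rose (11.1%, against 6.08% of all genes) and 0 fell (2.94% of all genes). With the block 5 rose (55.6%, against 13.0%) and 0 fell (22.2% of all genes). Genes of glucose uptake and glycolysis, which HIF can also raise, were counted under their own roles, as was EGLN3. These shares therefore do not cover every HIF target of the set. ADM, which encodes the vasodilator peptide adrenomedullin, had 8.97, 9.00 and 8.47 in controls and 10.33, 10.17 and 10.02 after IL-1. The lowest IL-1 array lay above the highest control, and the Sample array was the lowest of each group. ADM rose 2.57-fold, a log2 difference of 1.36 ± 0.18 (limma adjusted p = 0.00290), by 1.27 in the Allstars series and by 1.55 in the Sample series. Its adjusted p stayed at or below 0.0215 in all 18 alternative fits.

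ANKRD37, a small ankyrin repeat gene and known HIF-1 target, had 8.29, 8.43 and 8.67 in controls and 9.40, 9.24 and 8.68 after IL-1. The lowest IL-1 array and the highest control array were both from the Sample series and nearly level. The difference of 0.64 ± 0.22 did not pass without the block (limma adjusted p = 0.124) and passed with it (limma adjusted p = 0.00537) and without IL-1 replicate 3 (0.0196). It was 0.96 in Allstars and 0.01 in Sample.

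VEGFA, the main angiogenic growth factor, had 6.95, 6.84 and 7.11 in controls and 7.60, 7.29 and 6.98 after IL-1. The Allstars IL-1 arrays were the highest, while the Sample IL-1 array lay below its own control. The difference of 0.32 (95% interval -0.17 to 0.81) did not pass with or without the block (limma adjusted p = 0.443 and 0.172), and passed in the Allstars arrays alone (limma adjusted p = 0.0495). Its other 2 probes were well above background on 0 arrays.

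BNIP3, a mitophagy receptor, and P4HA2, a subunit of the collagen prolyl hydroxylase, differed by 0.44 and 0.40 and rose with the block (limma adjusted p = 0.000846 and 0.000825). NDRG1, a stress-induced gene, did so by 0.28 (limma adjusted p = 0.0483 with the block). All 3 also rose in the Allstars arrays alone, and BNIP3 rose without control replicate 3 in the fit with no block. P4HA2's other kept probes differed by 0.59 and 0.10. BNIP3L, CA12 and P4HA1 differed by 0.01, -0.07 and 0.11 and passed in neither fit. BNIP3L is a mitophagy receptor related to BNIP3, CA12 a membrane carbonic anhydrase, and P4HA1 the other collagen prolyl hydroxylase subunit of the set. The median of the 9 targets was 0.32.

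In glucose uptake, SLC2A6 rose and the widely used transporters SLC2A1 and SLC2A3 did not pass the test. SLC2A6, which encodes GLUT6, had 8.28, 8.29 and 8.99 in controls and 9.58, 9.77 and 10.07 after IL-1. The groups did not overlap, and here the Sample array was the highest of each. It rose 2.44-fold, a log2 difference of 1.29 ± 0.23 (limma adjusted p = 0.0125, and 1.77e-07 with the block). Its adjusted p was 0.0642 with control replicate 1 left out, 0.0605 with control replicate 2 left out and 0.0578 with IL-1 replicate 2 left out.

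SLC2A1, which encodes GLUT1 and is a classical HIF target, had 9.97, 9.87 and 10.15 in controls and 10.11, 9.96 and 10.40 after IL-1. The IL-1 arrays were higher within each title series, but the groups overlapped and the difference was 0.16 (95% interval -0.21 to 0.53, limma adjusted p = 0.636, and 0.158 with the block). With the block and equal array medians it was 0.24 and passed (limma adjusted p = 0.0362). SLC2A3, which encodes the high-affinity transporter GLUT3, had 12.29, 12.34 and 11.29 in controls and 12.25, 12.23 and 10.69 after IL-1. The Allstars arrays of both groups lay together and the Sample pair lay lower. Its difference was -0.25 (95% interval -1.31 to 0.82, and -0.46 to -0.04 with the block), and 0.27 without IL-1 replicate 3. It did not pass with the block (limma adjusted p = 0.0594). Within the title series SLC2A3 differed by -0.07 in Allstars and by -0.6 in Sample. SLC2A14 is a near-identical copy of SLC2A3, and a probe of 1 may read the other.

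Of the 17 glycolytic enzymes, all measured, 1 rose and 0 fell, which is 5.88% and close to the share of all genes that rose. HK2, the inducible hexokinase, had 7.23, 7.47 and 7.15 in controls and 8.36, 8.84 and 8.47 after IL-1. Every IL-1 array lay above every control array, and the Sample arrays lay close to the others. HK2 rose 2.41-fold, a log2 difference of 1.27 ± 0.18 (limma adjusted p = 0.00416). Its second probe rose by 1.93 (limma adjusted p = 0.000625 over all kept probes), from controls of 6.26 to 6.66. Those controls lay little above the lowest signals well above background, so the size of that rise is uncertain.

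HK1, the hexokinase of most resting tissues, had 13.42, 13.31 and 12.63 in controls and 13.61, 13.60 and 12.99 after IL-1. The IL-1 arrays were higher within each title series, by 0.24 and 0.37, while the groups overlapped. The difference of 0.28 (95% interval -0.30 to 0.86) did not pass without the block (limma adjusted p = 0.589), and passed with it (0.00556) and in the Allstars arrays alone (0.0379). A second kept HK1 probe, well above background on 4 arrays, differed by 0.24 and passed in neither fit, and 2 more were well above background on 0 arrays.

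With the block, 6 enzymes rose (35.3%, against 13.0% of all genes) and 2 fell (11.8%, against 22.2% of all genes). Besides HK1 and HK2 the rises were ENO2, the neuron-type enolase (0.44), PGK1, phosphoglycerate kinase (0.38), LDHA, the lactate-forming dehydrogenase subunit (0.23), and PGAM1, phosphoglycerate mutase (0.21). PGAM1 passed narrowly with the block (limma adjusted p = 0.0499) and did not pass in the Allstars arrays alone. Its second kept probe differed by 0.04 and passed in neither fit. The falls were PFKM, the muscle-type phosphofructokinase subunit (-0.37), and LDHB, the heart-type dehydrogenase subunit (-0.34). PFKM was the single gene of the set whose IL-1 arrays all lay below the controls, at 7.94, 7.89 and 8.08 against 8.26, 8.30 and 8.46, a pattern found in 17.1% of all genes tested.

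LDHA had 13.81, 13.93 and 14.41 in controls and 14.27, 14.04 and 14.53 after IL-1, so the IL-1 arrays were higher within each title series, by 0.28 and 0.12, while the groups overlapped. LDHB had 11.15, 11.02 and 11.73 in controls and 10.66, 10.83 and 11.39 after IL-1, a difference of -0.34 within each title series. PFKM and LDHB were chosen for their array values after these were seen. The limma adjusted p with the block was 0.0335 for LDHA and 0.00424 for LDHB, and 0.552 and 0.502 without it. PGK1 had 11.78, 11.62 and 12.11 in controls and 12.20, 11.88 and 12.58 after IL-1, and its second probe differed by 0.33 (limma adjusted p = 0.00949 with the block).

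The remaining 9 enzymes passed in neither fit: GPI, PFKL, PFKP, ALDOA, ALDOC, TPI1, GAPDH, ENO1 and PKM differed by -0.15 to 0.22, though PFKP and PKM rose with the block and equal array medians. GAPDH, often used as a reference gene, had 14.12, 14.05 and 14.25 in controls and 14.09, 14.03 and 14.25 after IL-1. The groups overlapped fully, with a difference of -0.02 (95% interval -0.25 to 0.21) that became 0.09 with equal array medians. Of the other 2 GAPDH probes 1 differed by -0.03, and the other differed by -0.25 and fell with the block (limma adjusted p = 0.0246 over all kept probes). Many glycolytic enzymes have near-identical processed pseudogenes, and whether their probes read these was not tested.

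Among the enzymes that set fructose 2,6-bisphosphate, PFKFB4 rose. It had 9.41, 9.42 and 8.62 in controls and 10.73, 10.66 and 9.99 after IL-1. The offset between Allstars and Sample was of like size in both groups, and the rise was 1.29 in Allstars and 1.37 in Sample. PFKFB4 rose 2.48-fold, a log2 difference of 1.31 ± 0.28 (limma adjusted p = 0.0267, and 1.53e-08 with the block). Dropping any 1 of the 4 Allstars arrays gave an adjusted p between 0.0561 and 0.116.

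PFKFB3, the isoenzyme whose kinase activity far outweighs its phosphatase activity, had 9.08, 9.06 and 9.42 in controls and 9.57, 9.62 and 9.38 after IL-1. The Allstars arrays rose by 0.53 and the Sample pair differed by -0.04. Its difference of 0.34 (95% interval -0.02 to 0.70) did not pass without the block (limma adjusted p = 0.257), and passed with it (0.0304) and in the Allstars arrays alone (0.00224). A second kept PFKFB3 probe differed by 0.23. PFKFB2 had 3 probes, none of which was well above background on more than 1 array.

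**Figure D4:**
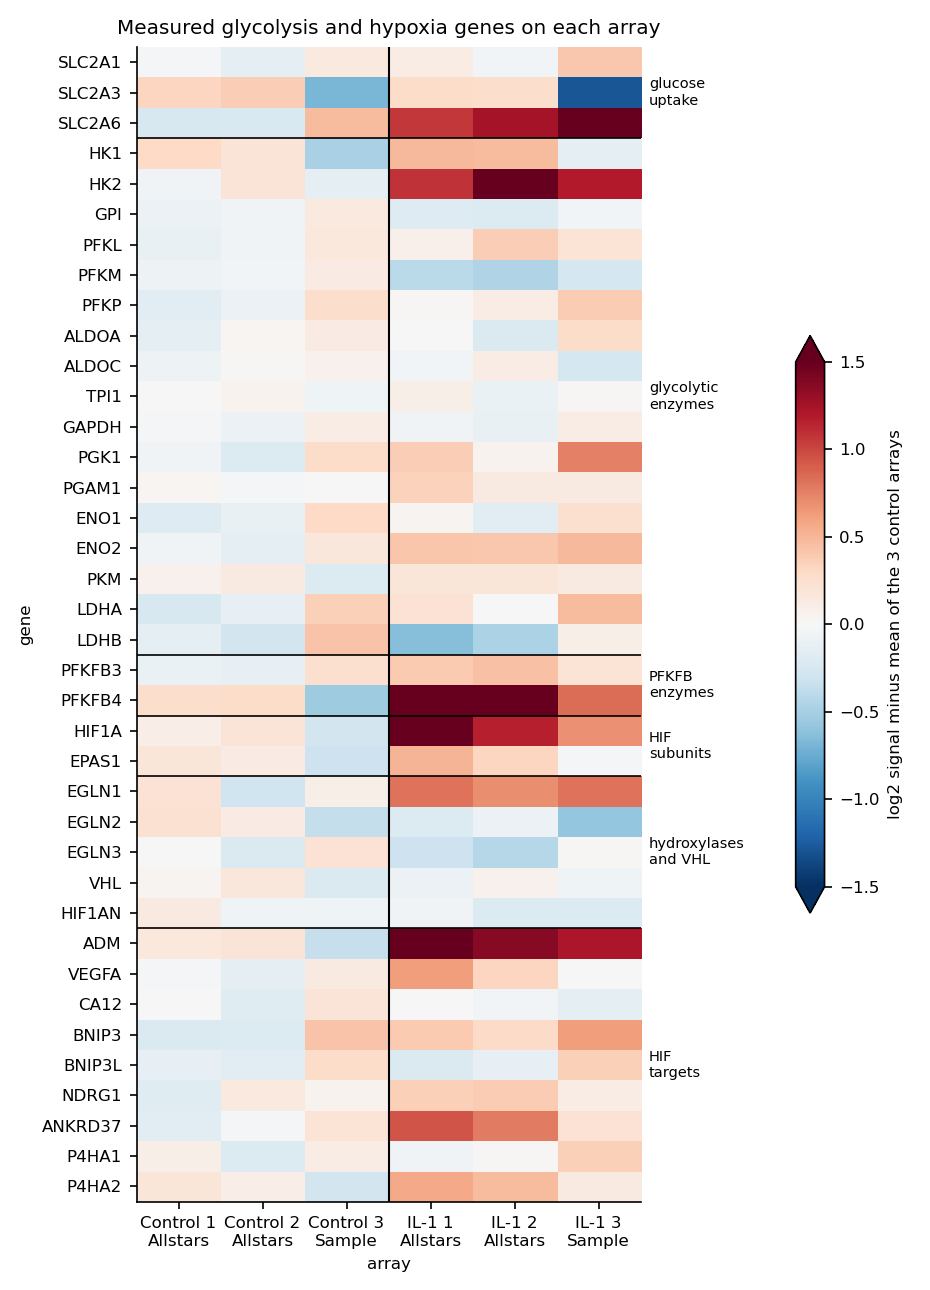
Colours give the log2 signal of each measured gene (rows, grouped by role) on each array (columns) minus the mean of the 3 control arrays. SLC2A6, HK2, PFKFB4, HIF1A, EGLN1 and ADM are red on all 3 IL-1 arrays, and most enzymes are pale. In genes such as SLC2A3 and HK1, control replicate 3 and IL-1 replicate 3 each lie below the other arrays of their group.

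The size of the response was then set apart by title series. The 6 genes that rose were higher after IL-1 in both kinds of array, by 0.81 to 1.39 in Allstars and by 0.72 to 1.55 in Sample. Of the 38 genes 28 had the same sign in both, as had 6798 of all 9078 genes. The Sample series holds 1 array of each group, so its difference has no replicate.

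The difference between the series in the response to IL-1 passed for 0 of the 38 genes and 0 of all genes (limma interaction term, adjusted p under 0.05), and at an unadjusted p under 0.05 for 6 and 552. ANKRD37 had the largest one of the set, lower in Sample by -0.95 (limma adjusted p = 0.304). Next came VEGFA with -0.69, PFKFB3 with -0.56 and SLC2A3 with -0.53 (limma adjusted p = 0.847, 0.611 and 0.426). In the authors' log2 values 45 of all genes passed, with ANKRD37 as the 1 gene of the set.

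**Figure D5:**
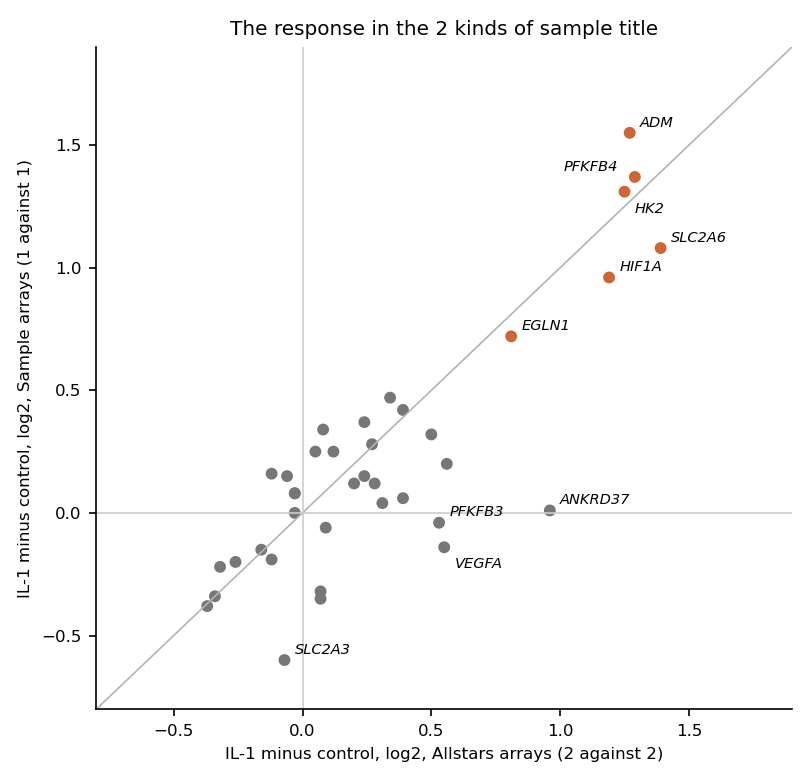
Points give the difference between IL-1 and control (log2) of the 38 measured genes in the Allstars arrays (x axis, 2 against 2) and in the Sample arrays (y axis, 1 against 1), with the line of equality. The 6 genes that rose (orange) lie near the line, and ANKRD37 lies at 0.96 in Allstars and 0.01 in Sample.

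Other genes of the same pathways were taken from a list of 57, of which 38 were measured. Of these 6 rose (15.8%, against 6.08% of all genes) and 0 fell (2.94% of all genes). With the block 13 rose (34.2%, against 13.0%) and 6 fell (15.8%, a lower share than the 22.2% of all genes). HILPDA, a lipid droplet protein induced by hypoxia, had 6.74, 6.49 and 6.60 in controls and 8.24, 8.44 and 7.74 after IL-1 and rose by 1.53 ± 0.21 (2.89-fold, limma adjusted p = 0.00364). INSIG2, an endoplasmic reticulum regulator of sterol synthesis, rose by 1.01 ± 0.14 (limma adjusted p = 0.00365).

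BPGM, which makes 2,3-bisphosphoglycerate from a glycolytic intermediate, rose by 1.53 ± 0.37 (limma adjusted p = 0.0435). The chemokine receptor gene CXCR4 rose by 1.07 ± 0.25 (limma adjusted p = 0.0395), by 0.68 in Allstars and by 1.86 in Sample. PLOD2, a collagen lysyl hydroxylase, and ERO1A, an oxidase of the endoplasmic reticulum, were the other rises, named after their values were seen, with 0.82 and 0.66. Of the 6 falls with the block, TXNIP, a brake on glucose uptake, the transporters SLC2A10 and SLC2A8, and MPC1, a subunit of the mitochondrial pyruvate carrier, had the largest differences, -0.61, -0.60, -0.51 and -0.50. PDK1, a pyruvate dehydrogenase kinase and HIF target, did not pass the detection filter.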

How the data were processed

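The deposited table gave, for 48784 probes on 6 arrays, 1 column of intensity (average signal) and 1 of detection p-value an array, per the file headers, which state no background correction or normalization. The authors' deposited series matrix holds log2 values, and the submitters' processing notes name lumi, with no settings. Their medians were 5.86 to 5.87 on Allstars and 6.49 to 6.50 on Sample arrays, and whether the kinds were normalized apart is unknown. Background correction and quantile normalization used limma's neqc (limma 3.58.1, R 4.3.3, offset 16). The 13017 probes well above background (detection p under 0.01) on 3 or more arrays were kept, named from GEO's platform annotation, and the brightest stood for its gene. Of all probes 28085 had 1 gene, 13 several and 20686 were not listed.

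The two-sided limma test (lmFit, eBayes with trend) was adjusted by Benjamini-Hochberg across 9078 genes, with treatment alone in the design and title series as a block in an alternative. Of the set, 15 genes had 20 further kept probes, 6 with a difference of opposite sign, 0 of these past the test. The code of the fits was checked on simulated arrays with independent noise, and no result given here rests on that check. Members and lists were chosen with earlier results of these data known. Values on every array are given for genes that passed, for genes that passed with the block and differed by at least 0.5, and for a fixed list of HIF, hexokinase, PFKFB, transporter and reference genes. Other genes of the pathways were named, up to 4 a direction, by size of difference. Array deviations from group means correlated by 0.531, 0.551 and 0.818 for replicates 1, 2 and 3. Allstars arrays of unlike number correlated nearly as much, by 0.487 and 0.478, and Allstars with Sample arrays by -0.62 to -0.673. Deviations cancel out within each group, so the negative values follow in part from the positive ones. The values thus follow the title series, and within Allstars they do not show pairing by number. Replicate 3 is the only Sample pair, so there number and title series cannot be told apart. Titles number replicates 1 and 2 only, so the number was not taken to pair arrays.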

Additional observations from a re-analysis of the deposited data

How the results depend on the processing

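Among 18 alternative settings, ADM and HK2 passed in all, SLC2A6 in 15, PFKFB4 and HIF1A in 14 and EGLN1 in 8, and 0 of these 6 changed sign. Blocks and the Allstars arrays raised the counts. With title series as a block, 3196 genes, 20 of the set and 19 of the other pathway genes passed. With the replicate number as a block (replicate block) these were 3323, 20 and 19, with the Allstars arrays alone 2582, 19 and 17, and with title series as a block and equal medians 2970, 22 and 18. Of all genes that passed, 67.4% rose without a block and 37.0% with title series as a block. Leaving out 1 array gave 426 to 965 genes, 2 to 6 of the set and 3 to 5 of the others. Such fits have unequal numbers of Allstars and Sample arrays in each group. The interaction passed for 5 genes without background correction, 12 with equal medians and 45 in the authors' log2 values. SLC2A3 ranged from -0.59 to 0.27 when 1 array was left out (0.27 without IL-1 replicate 3). GAPDH became 0.09 with equal medians, with or without the block, 0.02 in the authors' log2 values, and -0.08 to 0.04 when 1 array was left out (above 0 without control replicate 3 and, at 0.03, IL-1 replicate 2). VHL became 0.04 with equal medians, with or without the block, and -0.14 to 0.06 when 1 array was left out. After rounding it was 0.00 or above without control replicate 1, control replicate 2 or IL-1 replicate 1. The cause was not tested. Signals near background limit PFKFB2 and ARNT. They also bear on the size of some rises. EGLN1 controls, at 6.43 to 6.95, lay little above the lowest signals well above background, 5.86 to 6.28 across arrays. Controls of the second HK2 probe, at 6.26 to 6.66, also lay little above these. The rise of HK2 by its brightest probe, 1.27 in the main fit, was 0.98 without background correction and 0.89 in the authors' log2 values.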
